A study of Mus musculus with 24 samples.

Results

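The comparison described here sets the effect of losing 3 let-7 microRNAs in sorted alveolar type 2 (AT2) cells beside the effect of the same deletion in whole lungs, both 6 days after tamoxifen. It used 12 of the 24 libraries of the series: 3 control and 3 knockout libraries of AT2 cells, and 3 control and 3 knockout libraries of whole lungs. Of the 24970 gene symbols listed, 11766 had at least 1 TPM (the authors' unit of expression, transcripts per fixed total of transcripts, corrected for length) in 3 or more libraries of both tables and entered the comparison. For each gene the knockout effect was the mean of log2(TPM + 1) in knockouts minus that in controls. The difference was the lung effect minus the AT2 effect, so that a positive difference stands for a more positive effect in the tissue.

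Control mice of both tables carried the genotype Sftpc-CreER/+; R26-tdT/+, and knockout mice carried let7afd-/- in addition. All received tamoxifen, so the controls shared the Cre driver, the tdTomato reporter and the drug. Sftpc-CreER places the recombinase under the surfactant protein C gene, and the deletion is therefore conditional on cells that use this gene, while the other cells of the lung keep the locus. According to the labels, AT2 cells were flow-sorted and pooled from 3 mice, and the wording can be read as 3 mice per library or per group; lungs came from 3 mice of each genotype. Neither the age of the mice nor the sort markers appear in the labels. The labels do not tie libraries of one table to animals of the other, and no control library was used in both tables.

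MicroRNAs of the let-7 family guide a silencing complex to transcripts that hold a match to the seed, bases 2 to 8 of the mature RNA, and lower the level or translation of those transcripts. AT2 cells are the cuboidal cells of the alveolus that secrete surfactant, and after injury they divide and can become the flat AT1 cells that line the air space. A whole lung also holds airway epithelium, vessels, fibroblasts, macrophages and blood, so its RNA mixes cells that lost the microRNAs with cells that did not. The comparison addresses which changes were found both in the sorted cells and in the tissue, and which were found in one of them.

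The 3 mature microRNAs of the deleted cluster are printed here, from RefSeq for GRCm38.p6, because they carry 1 shared seed, shown in capitals.
let-7a-5p (chr13:48538239-48538260, minus strand): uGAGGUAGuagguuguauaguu
let-7f-5p (chr13:48537889-48537910, minus strand): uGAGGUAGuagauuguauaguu
let-7d-5p (chr13:48536078-48536099, minus strand): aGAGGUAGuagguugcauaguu
The RefSeq table held 10 mouse let-7 genes with this seed, and 7 of them lie outside the deleted cluster. All 12 libraries held 0 TPM for each of the 3 deleted precursor genes, so these tables give no check of the genotype.

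TPM carry no read numbers, and sequencing depth is therefore not known. Between 11814 and 12178 genes reached 1 TPM in an AT2 library and between 13620 and 14156 in a lung library. Sftpc, the gene of surfactant protein C, took 8.53% to 15.5% of TPM in AT2 libraries and 1.02% to 3.37% in lungs, and the epithelial gene Epcam stood at 164 to 195 TPM in AT2 cells and 55.6 to 67.5 TPM in lungs. The leukocyte gene Ptprc was low but not absent in AT2 libraries, at 1.00 to 3.37 TPM in controls and 4.48 to 10.1 TPM in knockouts, without overlap. In AT2 cells knockouts lay above all controls in 25.7% of the genes tested in both tables. Lung knockout 3 stood apart, with 8.45% of TPM in haemoglobin transcripts against 0.876% to 4.52% in the other 5 lungs, and with the endothelial gene Pecam1 at 186 TPM against 421 to 581 TPM. AT2 knockout 1 had 12.96% of TPM in ribosomal protein genes against 7.13% to 8.36% in the other 5 AT2 libraries.

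Most called changes were called in only one of the 2 tables, and few of those differed between the tables by a test of the difference itself. By limma, with Benjamini-Hochberg adjustment and a threshold of 0.05 on the adjusted p, 923 of the 11766 genes (7.84%) were called in AT2 cells, 781 higher (6.64%) and 142 lower (1.21%). In lungs 610 genes (5.18%) were called, 331 higher (2.81%) and 279 lower (2.37%). Both tables called 108 genes higher (0.918%) and 34 lower (0.289%), and 2 genes (0.017%) were called in opposite directions. The test of the difference called 125 genes (1.06%), of which 42 had the more positive effect in lungs (0.357%) and 83 the more positive effect in AT2 cells (0.705%). At an unadjusted p under 0.05 there were 1957. The smallest called difference was 0.76 and the median one 1.30 on the log2 scale, with a median SE over all genes of 0.24, so a smaller difference could rarely be called with these libraries.

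**Figure D1:**
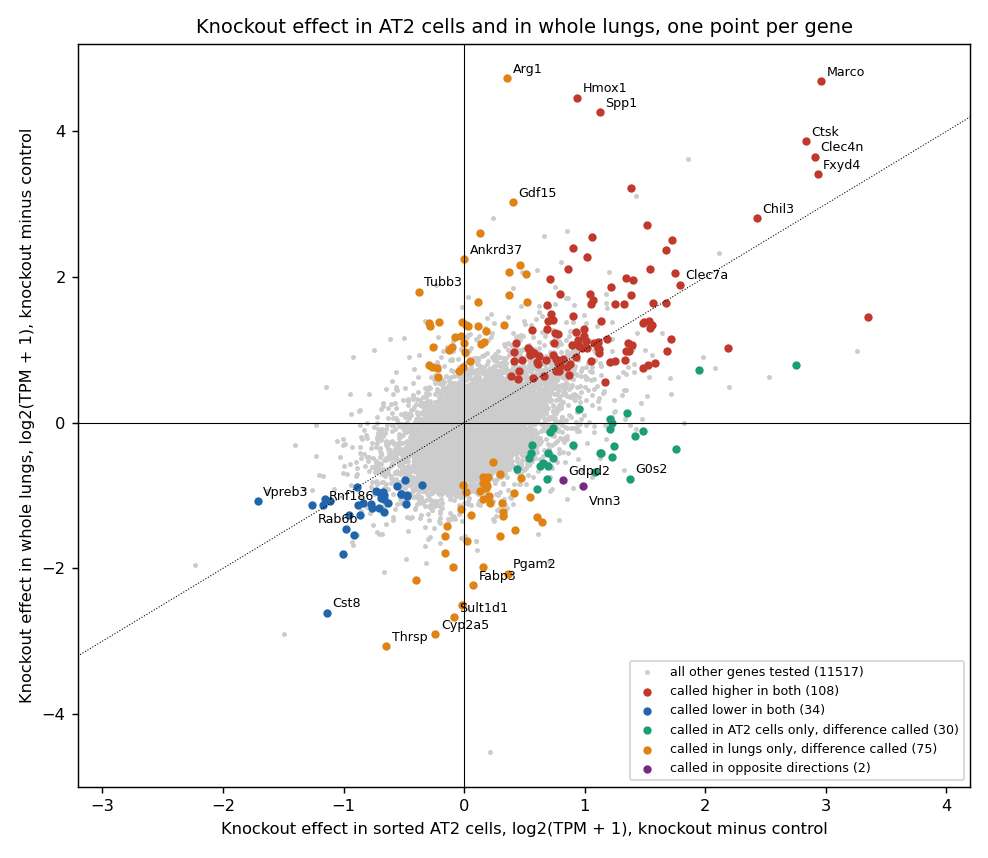
Knockout effect in whole lungs (vertical axis) against that in sorted AT2 cells (horizontal axis), each as the log2(TPM + 1) difference of knockout and control, for 11766 genes; colours mark genes called in both tables, in opposite directions, or in one table with a called difference, and the dotted line marks equal effects. The 108 genes called higher in both lie in the upper right, 73 of them above the line, and Arg1, Hmox1 and Spp1 lie far above it.

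These counts rested on a few lung libraries. Each alternative below leaves out 1 library or rescales all of them, by median ratios or by quantiles (the 2 rescalings). The 125 genes with a called difference kept the sign of that difference without any one of the 12 libraries. They were chosen in these same data for differences large beside their SE, so a kept sign was nearly given in advance. Only 4 of the 125 stayed called without lung control 1 (Ankrd37, Pgam2, Srl and St8sia6), 7 without lung control 3 (those 4 with Arg1, Ly6i and Vnn3) and 16 without lung knockout 2. St8sia6 was low in AT2 cells, at 0.133, 0.120 and 0.065 TPM in controls and 1.27, 1.26 and 1.53 TPM in knockouts. It passed the filter there only through the knockouts. Without lung knockout 3, the library that stood apart, all 125 stayed called and the count rose to 318, 109 above and 209 below; the median lung effect of all genes then moved from −0.12 to 0.02. Of 49 genes followed through each setting, 29 had a called difference, and 27, 25 and 20 of these calls ended without lung control 1, lung control 3 and lung knockout 2, and 11 and 10 without AT2 control 2 and AT2 control 3. Among the 39 lung calls of these genes, 21, 18 and 12 ended without lung control 1, control 3 and knockout 2, and among the 23 AT2 calls 14, 10 and 10 ended without AT2 control 2, control 1 and knockout 3.

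**Figure D2:**
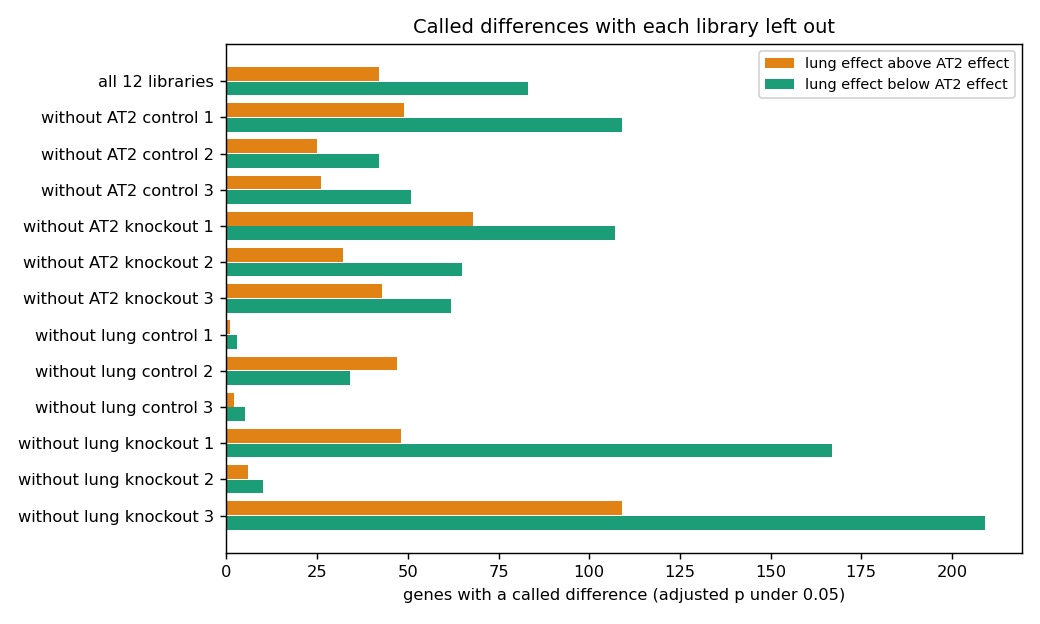
Number of genes (horizontal axis) with a called difference between the lung effect and the AT2 effect when each of the 12 libraries was left out in turn, split by the sign of the difference. All 12 libraries gave 42 and 83 genes, while 1 and 3 were called without lung control 1 and 109 and 209 without lung knockout 3.

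By the smaller of their 2 effects, the 6 named genes highest in both tables included Marco, Clec4n, Ctsk, Chil3 and Clec7a, which macrophages express, and Fxyd4. Of the alveolar macrophage list 5 of 20 were higher in both, and of the lipid-associated macrophage list 7 of 19 (all genes, 0.918%). Marco, a scavenger receptor of alveolar macrophages, stood at 0.534, 0.248 and 0.573 TPM in the AT2 controls and at 16.4, 5.71 and 11.2 TPM in the AT2 knockouts. In the lung controls it stood at 8.64, 43.2 and 5.51 TPM and in the lung knockouts at 339, 314 and 444 TPM. Knockouts lay above controls without overlap in both tables, which 9.54% of all genes did in one direction or the other. Lung control 2 was the highest lung control. Every AT2 control was under 1 TPM, so Marco passed the filter in AT2 cells only through the knockouts. Its lack of overlap there was thus fixed by the filter. The effect was 2.96 ± 0.31 (SE, adjusted p 0.00433 by limma) in AT2 cells and 4.69 ± 0.61 (0.00695) in lungs, and the difference of 1.73 ± 0.69 was not called (0.254).

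Clec4n encodes the lectin receptor Dectin-2. Its TPM were 1.66, 1.32 and 2.69 in AT2 controls, 30.9, 11.98 and 22.3 in AT2 knockouts, 41.9, 114 and 36.9 in lung controls, and 568, 564 and 1150 in lung knockouts. The genotypes did not overlap in either table, with effects of 2.91 ± 0.32 and 3.65 ± 0.44 by limma (adjusted p 0.00449 and 0.00594; difference 0.74 ± 0.54, 0.47). The cysteine protease Ctsk rose from 2.20, 1.31 and 2.22 to 33.2, 10.8 and 20.4 TPM in AT2 cells, and from 31.4, 51.2 and 27.5 to 418, 403 and 880 TPM in lungs. Effects of 2.43 ± 0.38 in AT2 cells and 2.80 ± 0.45 in lungs were found for the chitinase-like gene Chil3, and of 1.79 ± 0.39 and 1.89 ± 0.34 for Clec7a, which encodes Dectin-1. Fxyd4, a regulator of the sodium pump and no macrophage marker, rose in AT2 cells from 3.28, 1.99 and 6.71 to 16.5, 32.1 and 74.8 TPM, and in lungs from 1.34, 1.27 and 0 to 17.8, 12.4 and 24.3 TPM. By mean level Fxyd4 was higher in the AT2 knockouts than in the lung knockouts, although their values overlapped and the tables were normalized separately. The AT2 call of Clec7a ended under both rescalings and its lung call without lung control 1, 2 or 3. None of these 6 genes had a called difference (adjusted p 0.254 to 0.927), and a difference that misses the threshold does not show equal effects.

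Genes of the dividing cell rose in AT2 cells in most of the members tested, while few were called in lungs. Of 35 G2 and mitosis genes, 33 rose in AT2 cells (all genes, 6.64%) and 2 in lungs (all genes, 2.81%), where 1 fell, and their median effects were 0.89 and 0.92. Their summed TPM did not overlap between genotypes in AT2 cells and overlapped in lungs. Cdc20, which activates the anaphase-promoting complex, stood at 79.6, 79.1 and 74.2 TPM in AT2 controls and 168, 176 and 167 TPM in AT2 knockouts. In lungs it stood at 17.2, 36.4 and 15.5 TPM in controls and 41.7, 62.3 and 37.9 TPM in knockouts. The genotypes did not overlap in either table, although lung control 2 was close to the lowest lung knockout. The effects were 1.12 ± 0.07 (limma adjusted p 0.00146) and 1.08 ± 0.33 (0.0911, not called), and the difference, −0.05 ± 0.34, turned positive under both rescalings tried (0.19 and 0.12). Ccnb1, mitotic cyclin B1, was called in both (1.00 ± 0.08 and 1.29 ± 0.30). Pttg1, the securin that holds sister chromatids together, was the member that fell in lungs (−0.55 ± 0.13, adjusted p 0.0406). With either rescaling (median-ratio or quantile) 14 of the 35 were called higher in lungs. Of 34 G1 and S phase genes, 24 rose in AT2 cells and 2 in lungs, with medians of 0.58 and 0.48, and limma called 0 differences in either list (0 and 2 at an unadjusted p under 0.05). The G1 and S count in AT2 cells was 8 to 12 without any one AT2 control or without AT2 knockout 3, while that of the G2 list stayed at 31 to 33; in lungs both were 0 without lung control 1, control 3 or knockout 2.

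AT2 knockouts lay below all controls in 8.14% of all genes and lung knockouts in 22% of them. They lay above all controls in 25.7% and 12.6%. Among the 34 genes that fell in both tables, Cst8, a cystatin, fell from 128, 117 and 104 to 66.3, 68.4 and 31.3 TPM in AT2 cells and from 19.3, 14.3 and 26.5 to 3.10, 1.09 and 3.38 TPM in lungs. Its effects were −1.14 ± 0.27 and −2.61 ± 0.33 by limma, and the difference was not called (adjusted p 0.121). Rnf186, an E3 ubiquitin ligase gene, fell by nearly the same amount in both, with effects of −1.17 ± 0.26 and −1.14 ± 0.17. For Vpreb3, a gene best known from B cell precursors, the AT2 effect was −1.71 ± 0.27 and the lung effect −1.08 ± 0.22, and for the small GTPase gene Rab6b the values were −1.26 ± 0.26 and −1.13 ± 0.28. By limma 0 of the 34 had a called difference (6 at an unadjusted p under 0.05), and the fall was larger in lungs in 28 of them.

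Of the 108 genes that rose in both, 4 had a called difference. Hmox1, the haem oxygenase, stood at 113, 124 and 136 TPM in AT2 controls and at 273, 185 and 269 TPM in AT2 knockouts, and at 64.3, 293 and 49.2 TPM in lung controls and 1900, 1972 and 2758 TPM in lung knockouts. The genotypes did not overlap in either table, and lung control 2 again lay above the other 2 lung controls. The effects were 0.94 ± 0.16 and 4.46 ± 0.58, and the difference was 3.53 ± 0.60 (limma adjusted p 0.0341). Spp1, osteopontin, rose from 26.0, 31.5 and 31.2 to 107, 43.8 and 60.1 TPM in AT2 cells and from 136, 192 and 163 to 1833, 2734 and 6117 TPM in lungs, a difference of 3.13 ± 0.47 (0.00894); its AT2 call (1.13 ± 0.28, 0.0471) ended under both rescalings and without any one AT2 control. Trem2, a lipid receptor of macrophages, rose from 1.03, 0.764 and 0.904 to 3.51, 4.11 and 4.28 TPM and from 7.92, 15.7 and 6.78 to 85.0, 90.8 and 119 TPM, a difference of 1.84 ± 0.32 (0.0275); it falls outside the naming rule and was chosen after its values were seen. Orm1, which encodes an acute phase plasma protein, was the 1 gene of the 4 with the larger rise in AT2 cells. It rose from 4.48, 3.03 and 7.02 to 45.7, 52.9 and 73.2 TPM there and from 6.99, 6.55 and 5.37 to 11.8, 17.7 and 31.9 TPM in lungs, a difference of −1.90 ± 0.41 (0.0411), and that call ended under both rescalings and without any one lung control. Orm1 has near-identical copies, as do Chil3 and Cyp2a5, and how reads were shared among copies is not given in the sources used here.

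**Figure D3:**
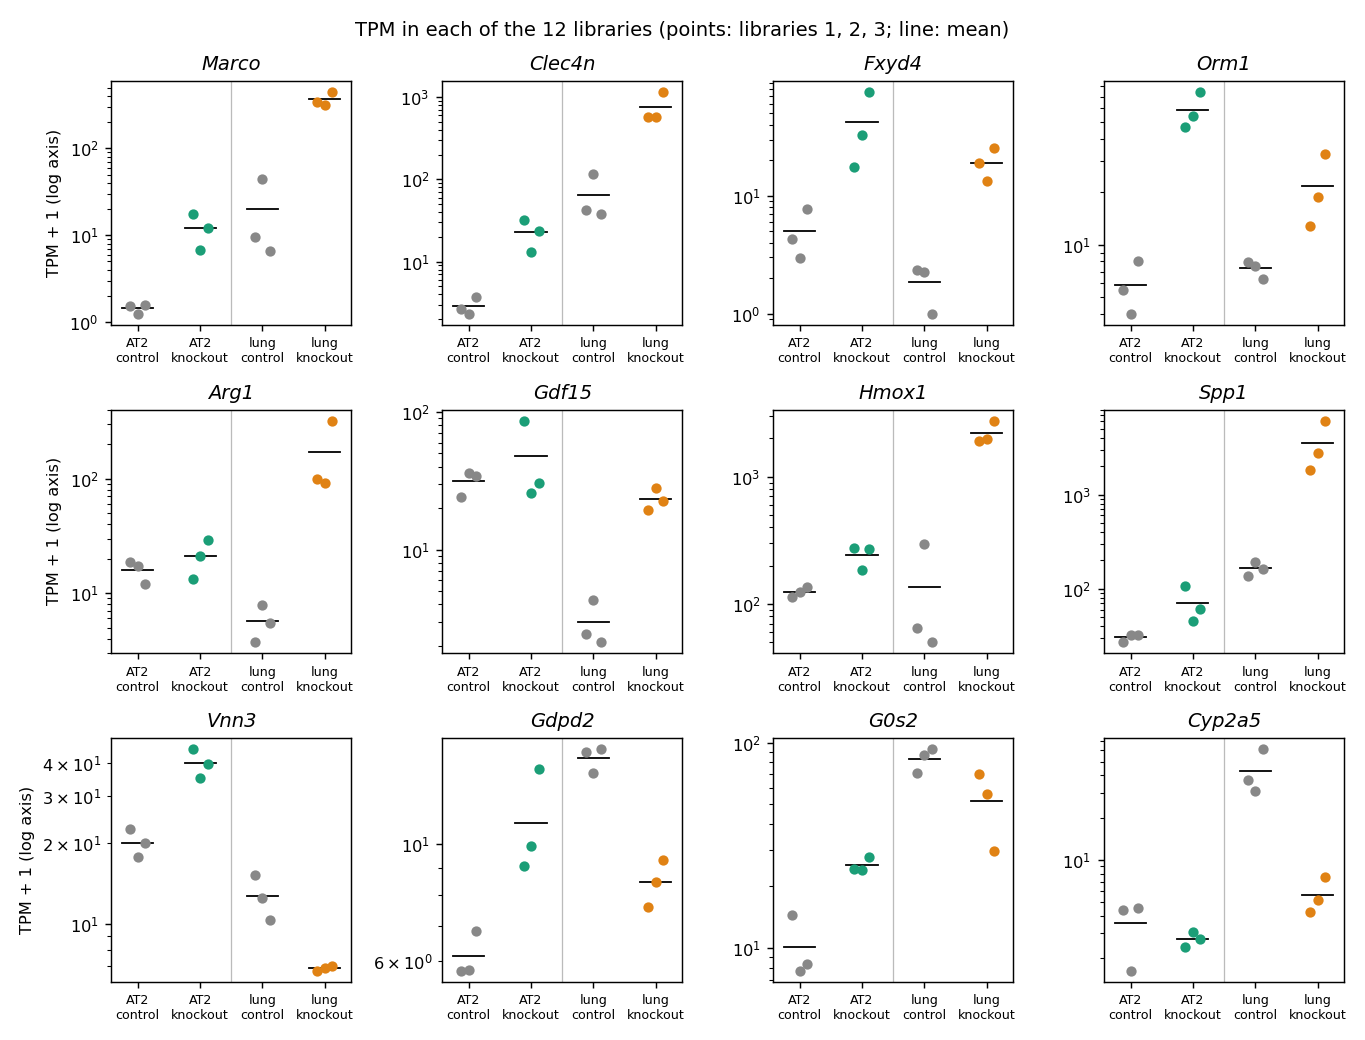
TPM + 1 (vertical log axis) of 12 genes in each of the 12 libraries, grouped as AT2 control, AT2 knockout, lung control and lung knockout; points are libraries and lines are means. Marco, Clec4n, Fxyd4 and Orm1 are higher in knockouts of both tables, Arg1 and Gdf15 are higher in lung knockouts and overlap in AT2 cells, and Vnn3 and Gdpd2 are higher in AT2 knockouts and lower in lung knockouts.

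Another 30 genes were called in AT2 cells, not called in lungs, and had a called difference. All 30 rose in AT2 cells, and 25 of them had a negative effect in lungs. Of all genes, 36.7% had a positive effect in lungs. The group was also selected for lung effects unlike those in AT2 cells, so the count of 25 is not a separate result. G0s2, an inhibitor of fat breakdown that is also high in neutrophils, stood at 13.4, 6.75 and 7.31 TPM in AT2 controls and 23.3, 23.1 and 26.6 TPM in AT2 knockouts, and at 69.8, 85.8 and 91.9 TPM in lung controls and 68.9, 54.9 and 28.6 TPM in lung knockouts. Knockouts lay above controls in AT2 cells and below them in lungs, where lung knockout 1 was within 1 TPM of the lowest control. The effects were 1.37 ± 0.22 (limma adjusted p 0.0142) and −0.77 ± 0.30 (0.161), and the difference was −2.14 ± 0.37 (0.0177). Tspan8, a tetraspanin gene of the AT1 list, rose from 85.9, 76.6 and 71.4 to 150, 149 and 154 TPM in AT2 cells and stood at 200, 191 and 170 against 214, 232 and 193 TPM in lungs. Its difference of −0.77 ± 0.16 (0.0403) was near the smallest that was called, and the call ended with median-ratio scaling and without any one lung control.

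The other members of this group fall outside the naming rule, and the following were chosen after their values were seen. Gpc3, a cell-surface proteoglycan gene, rose from 19.2, 19.2 and 20.6 to 45.3, 47.9 and 48.8 TPM in AT2 cells and stood at 182, 188 and 203 against 180, 129 and 110 TPM in lungs (difference −1.70 ± 0.20, limma adjusted p 0.00544). Elf5, an epithelial transcription factor gene, rose from 66.5, 52.9 and 44.5 to 79.0, 91.1 and 81.7 TPM in AT2 cells, while lungs held 24.0, 19.4 and 22.5 TPM in controls and 13.5, 13.8 and 15.4 TPM in knockouts (difference −1.22 ± 0.21, 0.0165). Lung knockouts of Gpc3 and Elf5 lay below all lung controls, and neither lung effect was called (0.164 and 0.0667). Zfp169, a zinc finger gene at chr13:48487647-48513451 on the minus strand in GENCODE M21, lies 22627 bases from the deleted cluster. It rose from 0.570, 0.553 and 0.616 to 13.01, 7.03 and 9.77 TPM in AT2 cells, and lungs held 2.09, 2.51 and 1.69 TPM in controls and 6.05, 4.88 and 2.63 TPM in knockouts (difference −1.96 ± 0.33, 0.0165). Every AT2 control of Zfp169 was under 1 TPM, so it passed the filter in AT2 cells only through the knockouts.

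In lungs, 75 genes were called with a called difference and no call in AT2 cells, 36 higher and 39 lower. Arginase 1, Arg1, had the largest positive difference. It stood at 17.7, 16.3 and 10.97 TPM in AT2 controls and 12.4, 19.9 and 28.0 TPM in AT2 knockouts, which overlapped, and at 2.72, 6.84 and 4.43 TPM in lung controls and 98.1, 91.4 and 321 TPM in lung knockouts, which did not. The effects were 0.36 ± 0.28 (limma adjusted p 0.445) and 4.73 ± 0.48 (0.00429), and the difference was 4.37 ± 0.56 (0.00395).

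Gdf15, a stress-induced cytokine gene, stood at 23.3, 34.8 and 33.1 TPM in AT2 controls and 85.7, 24.7 and 29.7 TPM in AT2 knockouts, and at 1.46, 3.32 and 1.12 TPM in lung controls and 18.4, 27.2 and 21.4 TPM in lung knockouts. Only AT2 knockout 1 was above the AT2 controls, whereas all lung knockouts were above all lung controls (difference 2.63 ± 0.50, limma adjusted p 0.0279). Ankrd37, a gene induced by low oxygen, was flat in AT2 cells at 7.72, 5.10 and 5.22 against 6.07, 4.66 and 7.26 TPM and rose in lungs from 5.05, 5.59 and 4.64 to 23.5, 31.0 and 29.6 TPM (difference 2.25 ± 0.26, 0.0018). Its call stayed without any one lung library. Tubb3, a beta tubulin gene, went from 1.38, 1.81 and 1.88 to 0.989, 1.31 and 0.910 TPM in AT2 cells, which was not called, and rose from 1.59, 2.15 and 0.677 to 11.1, 9.10 and 3.70 TPM in lungs (difference 2.17 ± 0.42, 0.0379).

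Genes that fell in lungs with a called difference and no call in AT2 cells included airway, muscle and lipid genes. Cyp2a5, a cytochrome P450 gene of airway secretory cells, fell in lungs from 36.2, 29.8 and 60.4 to 3.30, 4.16 and 6.53 TPM. In AT2 cells it stood at 3.44, 0.632 and 3.54 TPM in controls and 1.39, 2.06 and 1.74 TPM in knockouts, and its genotypes overlapped there (difference −2.67 ± 0.48, limma adjusted p 0.0186). The sulfotransferase gene Sult1d1 fell from 25.6, 19.8 and 28.7 to 1.41, 3.37 and 5.03 TPM in lungs and overlapped in AT2 cells, where it was at most 2.24 TPM (difference −2.58 ± 0.47, 0.0181). Pgam2, the muscle form of phosphoglycerate mutase, fell from 21.9, 14.4 and 17.8 to 2.96, 2.97 and 4.64 TPM in lungs, while AT2 cells held 3.04, 2.74 and 4.09 TPM in controls and 4.22, 4.78 and 4.40 TPM in knockouts (difference −2.44 ± 0.27, 0.0018). Fabp3, the heart fatty acid binding protein gene, and Thrsp, a regulator of fat synthesis, had differences of −2.30 ± 0.48 and −2.42 ± 0.48 (0.0364 and 0.046). Thrsp was also lower in AT2 knockouts, at 8.43, 6.76 and 4.88 against 3.71, 4.36 and 3.43 TPM without overlap, an effect of −0.65 ± 0.18 that was not called (adjusted p 0.0682). In lungs Thrsp went from 35.4, 13.1 and 41.3 to 2.12, 1.29 and 4.15 TPM. The difference calls of Fabp3 and Thrsp ended under both rescalings, a shared spread and a pseudocount of 0.1 TPM, and those of Cyp2a5 and Sult1d1 ended with that pseudocount.

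Vnn3 and Gdpd2 were the genes called in opposite directions. Vnn3, a member of the vanin family of pantetheinases, rose in AT2 cells from 21.6, 16.8 and 19.1 to 44.0, 34.2 and 38.7 TPM and fell in lungs from 14.2, 11.5 and 9.38 to 5.70, 5.86 and 5.95 TPM. The effects were 0.99 ± 0.12 and −0.88 ± 0.19 (limma adjusted p 0.00594 and 0.0343), and the difference was −1.86 ± 0.23 (0.0029). Gdpd2, a glycerophosphodiester phosphodiesterase gene, rose from 4.75, 4.76 and 5.84 to 8.10, 8.91 and 12.9 TPM and fell from 13.9, 12.6 and 14.2 to 6.58, 7.46 and 8.33 TPM (difference −1.61 ± 0.24, 0.00544). The genotypes did not overlap in either table for either gene. The AT2 and lung calls of Gdpd2 ended under both rescalings, and the lung call of Vnn3 under quantile normalization. Both lung calls also ended without lung control 1, 2 or 3 or lung knockout 2, and with the replicate number as a block.

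Across genes the 2 effects ran in the same direction more often than not. Over the 11766 genes, Pearson's r of the effects was 0.51 and Spearman's rho 0.45, a description across genes, which are not independent replicates. Of the 781 genes higher in AT2 cells, 80.0% had a positive effect in lungs, against 36.7% of all genes, and 13.8% were called higher in both. Of the 331 genes higher in lungs, 90.9% had a positive effect in AT2 cells, against 64.1% of all genes, and 32.6% were called in both. Of the 142 genes lower in AT2 cells 95.1% had a negative effect in lungs and 23.9% were called lower in both; for the 279 lower in lungs these shares were 79.2% and 12.2%. The median effect of all genes was 0.08 in AT2 cells and −0.12 in lungs, so that the median difference was −0.20. With median-ratio scaling the median difference became 0.02 and the share of called differences with the more positive effect in lungs went from 33.6% to 59.7%; with quantile normalization that share was 54.6%. Every one of the 125 that could be tested kept its sign under both, which their selection for large differences made likely in advance.

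Called changes, shared and unshared, were spread unevenly over the ratio of AT2 to lung control levels. Among 918 genes whose mean in AT2 controls was under 0.25 of that in lung controls, 8.28% were higher and 7.95% lower in lungs and 11.3% higher in AT2 cells; 40 of them were among the 108 higher in both, and 25 had a called difference below 0 and 7 above. Among 8803 genes within 2-fold of each other in the controls, 1.86% were higher and 1.23% lower in lungs and 6.25% higher in AT2 cells; 43 were higher in both, with 29 called differences below 0 and 23 above. At the other end, of 259 genes over 4 times higher in AT2 controls, 36 fell in lungs (13.9%) and 17 fell in AT2 cells, and 1 had a called difference below 0 and 4 above. These ratios set levels of the same gene side by side across tables that were normalized separately. The control libraries that set the ratio also enter both effects. A low value in AT2 controls or a high one in lung controls thus lowers the ratio and the difference together. Genes low in AT2 controls could also pass the filter there through the knockouts alone. The uneven spread is therefore not a result separate from the effects.

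Reported let-7 targets had 8 calls in the sorted cells and 1 in the tissue, and limma called 0 differences among them. Of 30 tested in both tables, 8 rose in AT2 cells (all genes, 6.64%) and 1 in lungs (2.81%), none fell, and the median effects were 0.30 and −0.02. The difference was positive in 4 of the 30, read beside a median difference of −0.20 over all genes, which places most genes below 0. At an unadjusted p under 0.05 there were 8 of the 30 (all genes, 1957 of 11766). The AT2 count was 1 without AT2 control 2, 2 without AT2 knockout 3, and 4 or 5 without AT2 control 1, control 3 or knockout 1. In lungs the median became 0.09 with median-ratio scaling (5 rose and 2 fell), 0.12 with quantile scaling (6 rose and 2 fell) and 0.13 without lung knockout 3. Nras, a RAS family gene, rose in AT2 cells from 15.8, 17.3 and 18.4 to 30.2, 24.5 and 25.8 TPM, and lungs held 46.6, 57.6 and 47.0 TPM in controls and 58.9, 52.9 and 44.7 TPM in knockouts, which overlapped. Its effects were 0.61 ± 0.11 and 0.05 ± 0.17 by limma, with a difference of −0.57 ± 0.20 that was not called (adjusted p 0.202).

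Gnptab, which makes the tag that sends enzymes to lysosomes, rose from 73.3, 82.5 and 89.6 to 120, 125 and 154 TPM in AT2 cells and stood at 24.6, 26.4 and 27.5 against 36.8, 32.7 and 30.5 TPM in lungs. The knockouts lay above the controls without overlap in both, with a difference of −0.36 ± 0.19 (limma adjusted p 0.342). Ezh2, the histone methyltransferase of Polycomb complex 2, had effects of 0.66 ± 0.12 (called) and 0.48 ± 0.22 (adjusted p 0.214), and its difference of −0.18 ± 0.25 became 0.043 and 0.062 under the 2 rescalings. Bach1, a repressor of haem oxygenase, was not called in either (−0.21 ± 0.11 and −0.16 ± 0.17). Il6, the interleukin 6 gene, was the 1 member called in lungs, with effects of 1.20 in AT2 cells (not called) and 2.06 in lungs.

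**Figure D4:**
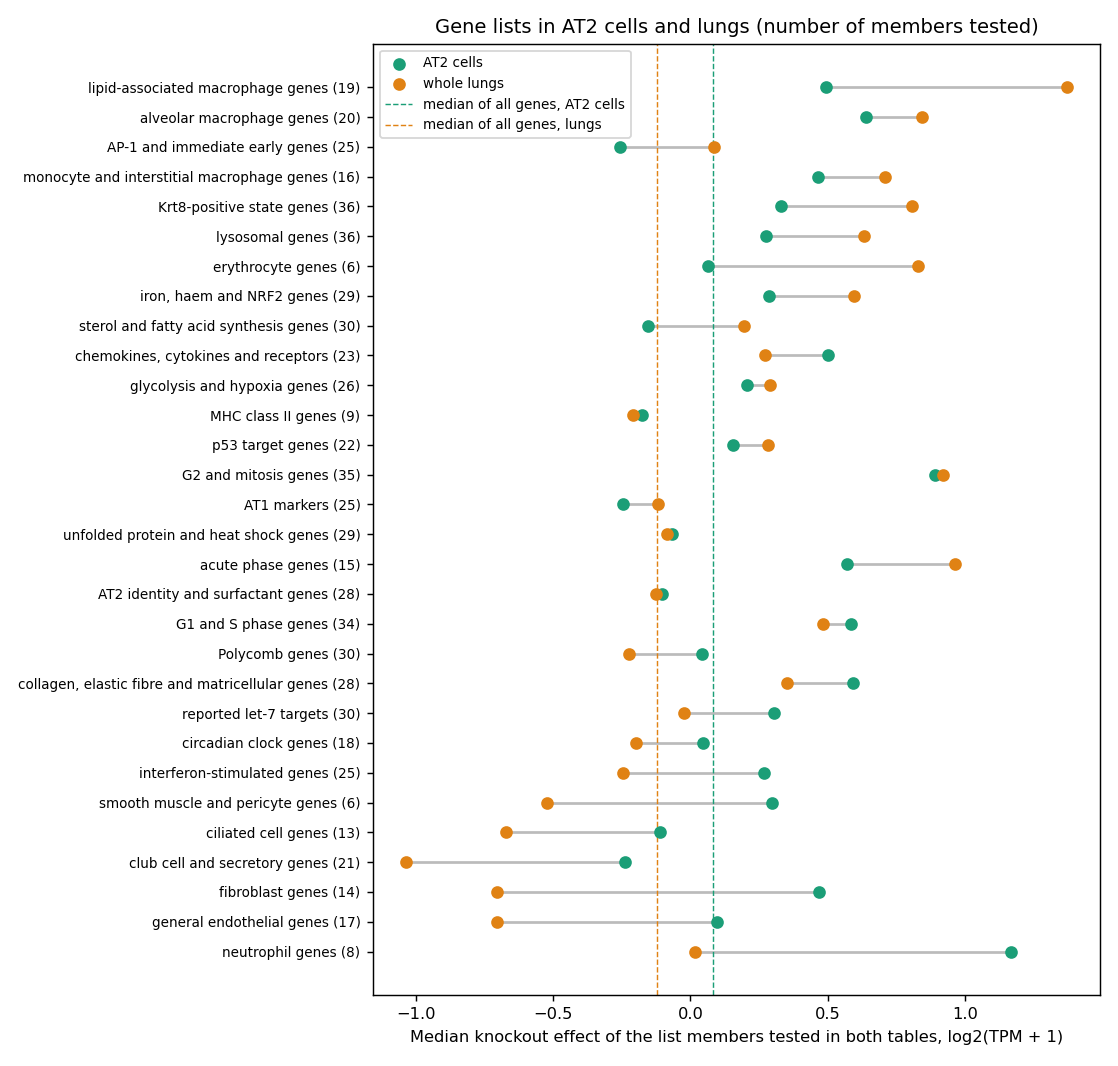
Median knockout effect on the log2(TPM + 1) scale (horizontal axis) of each gene list with at least 5 members tested in both tables, in AT2 cells and in lungs; dashed lines mark the medians of all 11766 genes, 0.08 and −0.12. Lipid-associated macrophage genes lie farthest to the right in lungs (1.37), and club cell genes farthest to the left (−1.03).

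The counts of genes that rose in this and the following lists are read beside 6.64% of all genes in AT2 cells, 2.81% in lungs and 0.918% in both. Counts of positive differences are read beside the median difference of all genes, −0.20, which places most genes below 0. In the Krt8-positive state list 24 of 36 differences were positive. Of the 36 genes of the Krt8-positive state, an intermediate that AT2 cells enter after injury, 9 rose in AT2 cells and 13 in lungs, 3 of them in both, none fell, and the median effects were 0.33 and 0.81. Of these, 4 had a called difference above 0 (all genes, 0.357%): Spp1, Gdf15, S100a6 and Sfn. S100a6, a calcium-binding protein gene, stood at 61.8, 59.2 and 50.6 against 64.9, 51.1 and 60.2 TPM in AT2 cells and rose from 401, 693 and 436 to 1072, 1257 and 1430 TPM in lungs (difference 1.29 ± 0.25, limma adjusted p 0.0341). Krt8 itself, the keratin that names the state, was called in neither table (0.30 ± 0.19 and 0.67 ± 0.18). Cldn4, a tight junction gene, was called higher in AT2 cells (adjusted p 0.0328) and not in lungs (1.00 ± 0.25, 0.0552). In AT2 cells the list's count was 0 without control 2 or knockout 3, 2 to 4 without control 1, control 3 or knockout 1, and 3 and 2 under the rescalings. In lungs it was 2, 3 and 4 without control 1, control 3 and knockout 2, 24 without knockout 3, and 23 and 20 under the rescalings.

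Of 29 iron, haem and oxidant defence genes, 7 rose in AT2 cells and 14 in lungs, 5 in both, and 1 fell in lungs (Tfrc, the transferrin receptor). Their medians were 0.28 and 0.60, and 22 of 29 had a positive difference. The AT2 count was 0 to 2 without any one AT2 library other than knockout 2, and the lung count was 3 without lung control 1 or 3 and 7 without lung knockout 2. Besides Hmox1, Blvrb had a called difference; this biliverdin reductase gene stood at 57.5, 61.0 and 61.6 against 74.6, 62.8 and 59.3 TPM in AT2 cells and rose from 50.0, 62.1 and 41.3 to 110, 116 and 163 TPM in lungs (1.20 ± 0.23, limma adjusted p 0.0364). The cystine transporter gene Slc7a11 rose in both (1.73 and 2.51). The ferritin genes Ftl1 and Fth1 rose in lungs (2.09 and 1.60) and were not called in AT2 cells (0.60 and 0.47), and their differences were not called.

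Sterol synthesis was called in the tissue and not in the sorted cells for a few enzymes. Of 30 sterol and fatty acid synthesis genes, 1 rose in AT2 cells and 5 in lungs, and 3 had a called difference above 0. Mvd, an enzyme of the mevalonate pathway, stood at 49.4, 53.7 and 70.3 against 45.3, 57.3 and 57.8 TPM in AT2 cells and rose from 14.9, 19.4 and 15.9 to 36.0, 37.0 and 33.1 TPM in lungs (difference 1.15 ± 0.22, limma adjusted p 0.0258). Fdps, the farnesyl diphosphate synthase, and Dhcr7, which completes cholesterol synthesis, had differences of 1.02 ± 0.21 and 1.08 ± 0.22 (0.033 and 0.0348). The genotypes of all 3 overlapped in AT2 cells and did not overlap in lungs. Without lung control 1, lung control 3 or lung knockout 2, limma called 0 of the list in lungs and 0 differences; with median-ratio scaling it called 8 higher in lungs and 6 differences.

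Immediate early genes were lower in AT2 knockouts by median (−0.26) and near 0 in lungs (0.09). Of 25 AP-1 and immediate early genes 2 fell in AT2 cells, 1 rose in lungs, and 21 had a positive difference. Junb, a subunit of the AP-1 transcription factor, stood at 481, 703 and 594 TPM in AT2 controls and 336, 417 and 445 TPM in AT2 knockouts, and at 54.0, 88.5 and 65.4 TPM in lung controls and 105, 142 and 90.6 TPM in lung knockouts. The genotypes did not overlap in either table and lay in opposite orders. Neither effect was called on its own (−0.56 ± 0.16 and 0.70 ± 0.23, limma adjusted p 0.0728 and 0.109), while the difference was (1.26 ± 0.28, 0.0472). Another subunit gene, Fos, stood at 805, 1083 and 1044 against 532, 740 and 707 TPM in AT2 cells and at 14.1, 30.1 and 19.1 against 27.2, 29.0 and 30.0 TPM in lungs, and its difference was not called (0.123).

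Acute phase genes were called in 5 of 15 in each table, 3 of them in both. Without lung control 1 the lung count was 1, and with median-ratio scaling it was 10. Lcn2, which binds bacterial siderophores, was called in both, with effects of 1.40 and 1.96. Lrg1, a secreted glycoprotein gene, rose in lungs (1.71 ± 0.14) and was not called in AT2 cells (0.85 ± 0.22). Of 26 glycolysis and hypoxia genes, 3 rose in AT2 cells and 9 in lungs, and Ankrd37 was the member with a called difference; the lung count was 1 without lung control 1, control 3 or knockout 2. Of 22 p53 target genes, Gdf15 and Plk3, a stress kinase gene, had called differences; Plk3 stood at 8.55, 14.5 and 10.1 against 11.1, 7.16 and 9.85 TPM in AT2 cells and rose from 7.98, 11.6 and 6.31 to 23.4, 20.0 and 27.8 TPM in lungs (1.59 ± 0.31, limma adjusted p 0.0279). Of 25 interferon-stimulated genes limma called 0 in either table, with 10 and 4 at an unadjusted p under 0.05 and medians of 0.27 and −0.24.

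Of 28 AT2 identity and surfactant genes, 2 rose in AT2 cells (all genes, 6.64%), and 3 rose (2.81%) and 2 fell (2.37%) in lungs, with medians of −0.10 and −0.12. The list's summed TPM were lower in knockouts without overlap in both tables, at 282538 to 300766 against 194193 to 274678 TPM in AT2 cells and 54967 to 62588 against 38004 to 47423 TPM in lungs. Sftpc, a member of the list, made up a large part of these sums, so they do not show a fall of the other members. Sftpc stood at 155065, 143693 and 141750 TPM in AT2 controls and 85303, 128668 and 110195 TPM in AT2 knockouts, and fell in lungs from 33719, 28797 and 31737 to 10154, 10404 and 13236 TPM. The genotypes did not overlap in either table. The effects were −0.46 ± 0.72 (limma adjusted p 0.714) and −1.49 ± 0.14 (0.00382), and the difference of −1.03 ± 0.73 was not called (0.474). With the variance trend, limma draws each SE towards the spread of genes of like level. The AT2 SE of Sftpc was larger than its own values alone would give. The missing calls in AT2 cells and for the difference therefore do not measure the spread of Sftpc between libraries. The lung call of Sftpc ended with median-ratio scaling. In bulk RNA, fewer cells of a type and less RNA per cell cannot be told apart. Fabp5, a fatty acid binding protein gene that the AT2 and the lipid-associated macrophage lists share, stood at 1606, 1334 and 1187 against 1079, 1222 and 1058 TPM in AT2 cells and rose from 232, 254 and 288 to 544, 591 and 919 TPM in lungs (difference 1.66 ± 0.25, 0.00909). Of 25 AT1 markers, 2 rose and 2 fell in AT2 cells (all genes, 6.64% and 1.21%) and 2 rose in lungs (2.81%); Hopx, a homeodomain gene, fell in AT2 cells from 95.9, 127 and 80.6 to 61.1, 70.6 and 54.2 TPM and overlapped in lungs at 734 to 982 TPM (difference 0.60 ± 0.22, 0.22).

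Genes on marker lists of other cell types moved with several of these results, and the part of such cells in them was not tested. AT2 cells also express some of these genes, such as Fabp5, which is on the AT2 list as well. Of 20 alveolar macrophage genes 7 rose in AT2 cells and 10 in lungs, where 1 fell. With the members tested in lungs alone added, 10 of 24 rose in lungs and 4 fell, among them Fabp1 (−2.79), Cidec (−1.67) and Siglecf (−0.98). The alveolar macrophage list summed to 940 to 1018 TPM in AT2 controls, 1156 to 1290 TPM in AT2 knockouts, 3408 to 3628 TPM in lung controls and 8267 to 20533 TPM in lung knockouts. Of 19 lipid-associated macrophage genes 8 rose in AT2 cells and 15 in lungs, 7 in both, and 5 had a called difference above 0: Arg1, Ctsd, Spp1, Fabp5 and Trem2. Their sums were 5333 to 5664 and 5803 to 6058 TPM in AT2 controls and knockouts, and 4006 to 4901 and 11469 to 17733 TPM in lungs. Ctsd, a lysosomal aspartic protease gene, stood at 240, 236 and 245 against 429, 307 and 310 TPM in AT2 cells and rose from 677, 821 and 659 to 2953, 2460 and 3535 TPM in lungs (difference 1.53 ± 0.21, limma adjusted p 0.00395). Of 36 lysosomal genes 9 rose in AT2 cells and 20 in lungs, and Ctsd had the 1 called difference. The lysosomal list summed to 9743 to 10468 TPM in AT2 controls and 6962 to 8209 TPM in lung controls. The lysosomal and lipid-associated macrophage sums were thus higher in AT2 controls than in lung controls, in tables normalized separately. Neither list is particular to macrophages. Without lung control 1 the lung counts of the 3 lists were 4, 6 and 5, and without lung control 3 they were 5, 10 and 7; without AT2 knockout 3 the AT2 counts were 3, 3 and 5. F7, the gene of coagulation factor VII and a member of the macrophage list, rose in lungs from 14.5, 15.5 and 12.7 to 70.6, 44.7 and 78.9 TPM and was not called in AT2 cells (difference 1.70 ± 0.28, 0.0143). No marker of either macrophage list was at 0 TPM in all AT2 libraries together. Zeros in single libraries were not counted.

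Airway, vessel and mesenchymal markers had negative medians in lungs. In AT2 cells the club cell and ciliated medians were also negative. The other medians were positive there, with that of 4 airway basal cell genes at 0.36. Of 21 club cell and secretory genes 15 fell in lungs (all genes, 2.37%) and 2 in AT2 cells, with medians of −1.03 and −0.24, and the list summed to 162202 to 186301 TPM in lung controls and 75096 to 92994 TPM in lung knockouts. Scgb1a1, the club cell secretoglobin, had effects of −0.51 ± 0.57 and −1.03 ± 0.13, and its difference of −0.52 ± 0.58 became 0.74 with quantile normalization; its lung call ended under both rescalings and without lung control 1 or lung knockout 3. Cyp2a5 was the 1 member with a called difference; Cyp2f2, another P450 of club cells, came close (−1.39 ± 0.32, limma adjusted p 0.0527). Without lung control 1 the lung count was 5, and without lung control 3 it was 7. Of 13 ciliated cell genes, with medians of −0.67 in lungs and −0.11 in AT2 cells, 5 fell in lungs (1 without lung control 1 or 3), and limma called 0 in AT2 cells (1 at an unadjusted p under 0.05).

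For 17 general endothelial genes limma called 0 effects in either table (2 and 9 at an unadjusted p under 0.05), and 0 of the 17 lung effects were positive, with a median of −0.70 against 0.10 in AT2 cells. The lung median was −0.30 without lung knockout 3, the library with the lowest Pecam1, and 4 members then fell; 8 fell without lung knockout 1. After quantile normalization 6 fell, and after median-ratio scaling 3. Of 14 fibroblast genes 5 fell and 1 rose in lungs, and 1 fell in AT2 cells. The fibroblast sums overlapped in lungs, at 11556 to 14028 TPM in controls and 9798 to 15543 TPM in knockouts. The matrix genes went the other way by median. Of 28 collagen, elastic fibre and matricellular genes, 8 rose in AT2 cells (all genes, 6.64%) and 3 in lungs (2.81%). None fell, and their medians were 0.59 and 0.35. Dcn, decorin, a matrix proteoglycan, stood at 6.00, 2.75 and 3.32 against 4.62, 5.34 and 6.64 TPM in AT2 cells and fell from 248, 210 and 308 to 125, 69.3 and 83.9 TPM in lungs (difference −1.90 ± 0.33, limma adjusted p 0.0165). Gsn, the actin-severing protein gelsolin, fell in lungs from 2527, 2261 and 3044 to 1224, 856 and 560 TPM and overlapped in AT2 cells (difference −1.65 ± 0.34, 0.033). Msln, a mesothelial surface protein gene, went the other way and rose in lungs from 63.3, 61.8 and 62.4 to 140, 164 and 178 TPM, with no call in AT2 cells at 3.05 to 5.84 TPM (difference 1.01 ± 0.21, 0.0359).

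**Figure D5:**
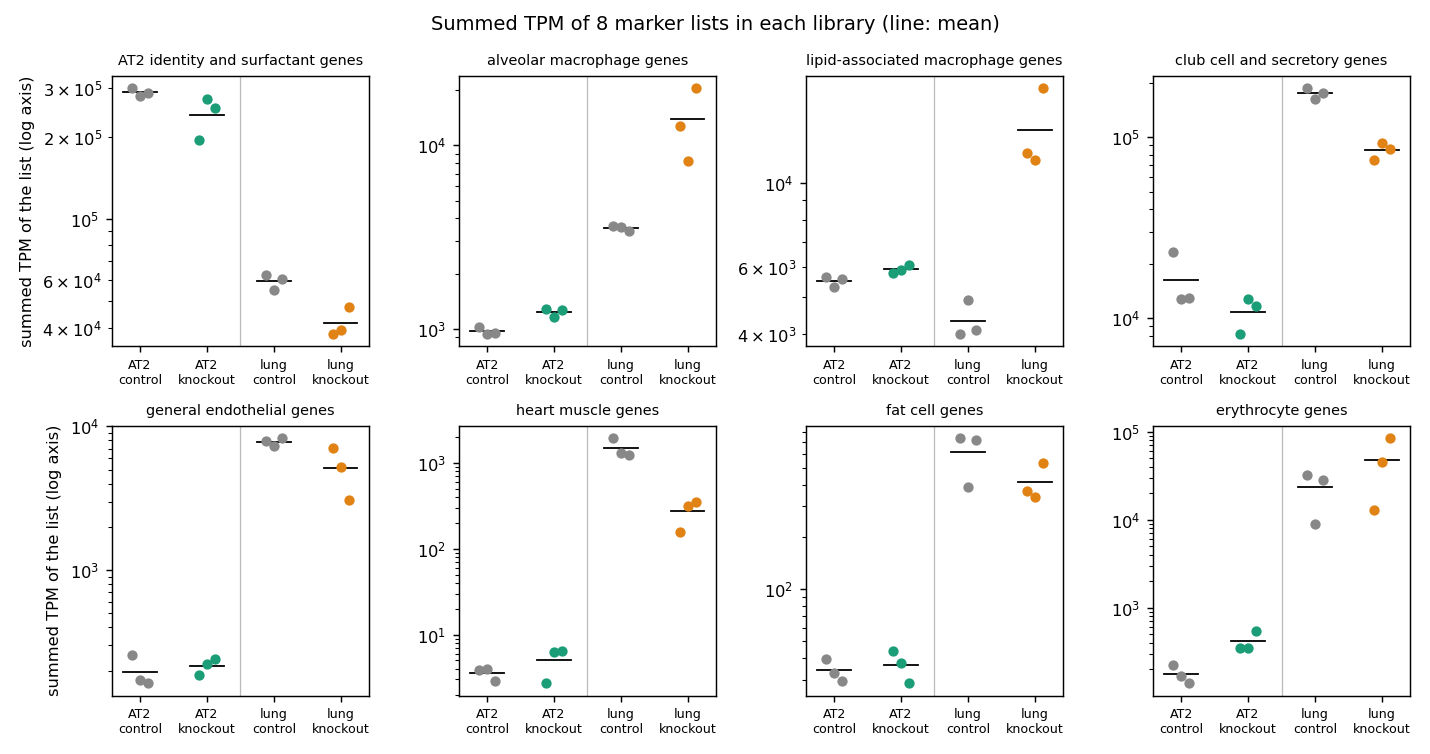
Summed TPM (vertical log axis) of 8 cell type marker lists in each of the 12 libraries; points are libraries and lines are means. Macrophage sums are higher in all 3 lung knockouts than in any lung control, club cell and heart muscle sums are lower, and the erythrocyte sums of the lungs overlap.

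Some changes could be measured in only one of the tables. Of 2388 genes tested in lungs alone, 117 rose and 260 fell (15.8% called), and of 343 tested in AT2 cells alone, 21 rose and 6 fell (7.87%). All 16 heart muscle genes tested in lungs fell, with a median of −2.51, and the list of 18 summed to 1251 to 1975 TPM in lung controls, 158 to 349 TPM in lung knockouts and at most 6.42 TPM in AT2 cells, where Nppa, Myl3, Myl2 and Csrp3 were at 0. Actc1, cardiac actin, fell in lungs from 372, 278 and 289 to 53.6, 54.5 and 51.3 TPM (−2.53 ± 0.15, limma adjusted p 0.00177). Of 12 fat cell genes tested in lungs 10 fell and 1 rose (Lpl, which macrophages also express). Car3, a carbonic anhydrase of fat, fell from 105, 36.1 and 114 to 2.40, 1.43 and 5.71 TPM (−4.33 ± 0.50, 0.00517). Pgam2, Fabp3, Thrsp and Srl, a calcium-binding protein gene of muscle, fell in the same lungs; whether they share a source with these lists was not tested.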

How the data were processed

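RNA from 6 AT2 and 6 whole-lung libraries (poly(A)-selected and not strand-specific, per the labels' protocols) was quantified by the authors as TPM, in 1 deposited table for each kind of sample. The build was GRCm38 per the submitters' processing notes; the aligner, the quantification tool and the annotation release used for the tables are not stated there. Without strand, reads from a gene and an overlapping antisense gene cannot be separated. TPM keep no depth, so counting error is unknown. Whether all libraries came from separate animals or pools is not fully stated, so p-values measure the spread between libraries, which may be partly technical. In limma that spread is drawn towards the spread of genes of like level.

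Each table listed 24972 symbols; 2 with a repeated symbol were left out, and 24 written as dates were kept but not named. The fits used log2(TPM + 1), which understates changes of low genes, 1 table at a time, and genotype as the only term (R 4.3.3, limma 3.58.1, two-sided, variance trend on, Benjamini-Hochberg adjusted). The tables tested 12109 (AT2) and 14154 (lung) genes with at least 1 TPM in 3 or more libraries, and 11766 passed in both. The difference took its SE from both moderated SEs with Satterthwaite degrees of freedom, was adjusted over the 11766 genes, and was called at an adjusted p under 0.05. A separate spread per table followed earlier work on these data; on simulated data here the separate and the shared spread gave similar false calls.

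Named genes were, passing over predicted genes, date-like symbols and receptor segments and with a mean of at least 5 TPM: 6 higher and 4 lower in both by the smaller effect, those called in opposite directions, the 6 largest differences of each sign, up to 3 members of each described list by adjusted p of the difference, and a set of 13 genes. Trem2, Gpc3, Elf5, Zfp169, Sfn, Srl, Il6, Tfrc, Slc7a11, Ftl1, Fth1, Cldn4, Lcn2, Actc1, Car3 and other list members outside the rule were picked with their values already in view. The members and the 35 gene lists were chosen with earlier results of these data known. Settings changed one at a time were the pseudocount (0.1), the filter (none, or 5 TPM), median-ratio or quantile scaling, a shared spread, no trend, the replicate number as a block, each library left out, and a threshold of 0.1. Libraries of 1 group correlated at 0.981 to 0.996 and no pair was identical. The 6-month lungs and the organoids were not used here.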

Additional observations from a re-analysis of the deposited data

Results flagged for a closer look

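For 29 genes named above, the test of the difference between the lung and the AT2 knockout effect passed, and its value is given here once for each, as lung minus AT2 on the log2(TPM + 1) scale. The difference was positive for Arg1 (4.37), Hmox1 (3.53), Spp1 (3.13), Gdf15 (2.63), Ankrd37 (2.25), Tubb3 (2.17), F7 (1.70), Fabp5 (1.66), Plk3 (1.59), Ctsd (1.53), S100a6 (1.29), Junb (1.26), Blvrb (1.20), Mvd (1.15), Dhcr7 (1.08), Fdps (1.02) and Msln (1.01). It was negative for Cyp2a5 (−2.67), Sult1d1 (−2.58), Pgam2 (−2.44), Thrsp (−2.42), Fabp3 (−2.30), G0s2 (−2.14), Dcn (−1.90), Orm1 (−1.90), Vnn3 (−1.86), Gsn (−1.65), Gdpd2 (−1.61) and Tspan8 (−0.77). Because each group held 3 libraries, single libraries were not screened for outlying values.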

How the results depend on the processing

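The sign of the 125 called differences held in every alternative where they could be tested, while which of them were called did not. As the 125 were selected for differences large beside their SE, the kept sign is no separate support for them. In the order genes called in AT2 cells, genes called in lungs, higher in both, lower in both, opposite, lung effect above, lung effect below, AT2 call with a called difference and lung call with one, the counts were 923, 610, 108, 34, 2, 42, 83, 30 and 75. At a threshold of 0.1 they were 1866, 1249, 274, 106, 23, 84, 177, 68 and 150. Other counts that moved by over 1.5 times were, without a filter, 368 in AT2 cells, 44 higher and 5 lower in both, 0 opposite, 97 above, 270 below and 280 for lungs alone. With the filter at 5 TPM they were 373 in lungs, 26 above, 36 below, 18 for AT2 cells alone and 34 for lungs alone. Median-ratio scaling gave 601 in AT2 cells, 1249 in lungs, 52 lower in both, 114 above and 133 for lungs alone, and quantile normalization gave 595, 1334, 63, 118 and 145. A shared spread gave 251 in AT2 cells and 1743 in lungs, 19 lower in both, 5 opposite, 51 below and 12 for AT2 cells alone. Without a trend 18 were lower in both and 16 were in AT2 cells alone, and a pseudocount of 0.1 gave 50 below and 43 for lungs alone. The cause of these shifts was not tested.

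With the replicate number as a block, 32 differences were above, 59 below and 0 genes were called in opposite directions. Deviations of same-numbered libraries correlated at −0.17, 0.08 and 0.17 in AT2 cells and −0.15, 0.0053 and −0.14 in lungs. These values show no clear pairing by number, and with so few libraries they cannot exclude it. In each table some libraries correlated best with another number, and a call lost under the block is no sign of a weaker effect.

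Leaving out 1 library at a time gave 184 to 1189 genes in AT2 cells, 59 to 1484 genes called in lungs, 17 to 197 higher and 2 to 62 lower in both, 0 to 9 opposite, 1 to 109 above, 3 to 209 below, 1 to 63 for AT2 cells alone and 3 to 202 for lungs alone. Where a group was left with 2 libraries the fit pooled the spread. Differences of 8 genes, none of them called, changed sign with some library left out: Fxyd4 (−0.031 to 1.03), Chil3 (−0.14 to 0.93), Clec7a (−0.27 to 0.53), Rnf186 (−0.23 to 0.37), Rab6b (−0.15 to 0.46), Bach1 (−0.072 to 0.19), Cdc20 (−0.27 to 0.32) and Ccnb1 (−0.031 to 0.58). So did Clec7a with a pseudocount of 0.1 (−0.32), Scgb1a1 with quantile normalization (0.74), and Ezh2 (0.043 and 0.062) and Cdc20 (0.19 and 0.12) with median-ratio scaling and quantile normalization. With 3 libraries per group and a median SE of 0.24, differences under 0.76 were not called at all.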
